A study of Arabidopsis thaliana with 10 samples.

Results

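Allele-specific reads were examined in hand-dissected endosperm of Arabidopsis thaliana seeds that abort, to ask which genes were transcribed more from the maternal or more from the paternal genome. The genes are those of the deposited allele table with 20 or more reads summed over the 3 replicates of lethal paternal excess, and 13605 of the 37336 gene rows met this rule. Ler reads were counted as maternal and Col reads as paternal, and each gene was set against the equal share that 2 maternal and 2 paternal genome copies would give. Any read at all was present for 18917 genes. At the edge of the rule, the 97 genes with exactly 20 reads had a median maternal share of 50% and the 119 genes with 19 reads, which were left out, one of 42.1%.

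In lethal paternal excess, Ler flowers had been crossed with pollen of wild-type 4N (tetraploid) Col plants. In viable paternal excess the 4N Col plants carried nrpd1, a mutation in the largest subunit of RNA polymerase IV. Each group held 5 samples from 3 replicates, because replicates 1 and 2 were sequenced in 2 parts that the authors merged, and each sample pooled seeds from crosses of several individuals. Samples were labelled as 7 days after pollination except 1 part of lethal replicate 1 at 8 days, and the text of the series says 6 days. Balanced endosperm, with 2 maternal copies and 1 paternal copy, came from other series and entered here only as the authors' pool of 5 replicates. Ler was the mother in every library, so an effect of the parent and a difference between the accessions cannot be told apart.

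Endosperm is the tissue that nourishes the plant embryo, and it forms when the paired central nuclei of the mother fuse with a sperm nucleus. A small number of its genes are imprinted, which means that DNA methylation, its removal in the central cell and histone marks placed by Polycomb repressive complex 2 leave only the maternal or only the paternal copy active. Extra paternal genomes delay endosperm cellularization and often kill the seed, and loss of RNA polymerase IV in the father, a component of RNA-directed DNA methylation, can rescue it. The neighbouring seed coat is wholly maternal tissue. The embryo of this cross carries 1 maternal genome copy for 2 paternal copies, a maternal share of 33.3%.

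As wholes, the lethal libraries were close to evenly divided between the parents. Allele reads in genes numbered 7983669, 7356862 and 7413482 in lethal replicates 1, 2 and 3, of which 48.9%, 47.7% and 48.1% were maternal (the Wilson 95% intervals together run from 47.6% to 48.98%). The viable libraries held between 5692640 and 6683136 allele reads, with maternal shares of 48.2%, 47.02% and 48.4%. Lethal libraries averaged 48.2% ± 0.66 and viable libraries 47.9% ± 0.76 (SD, n = 3 each). The lethal mean gave p = 0.25 against 50% in an exact two-sided sign permutation test, the smallest p that 3 libraries allow, and the difference of 0.34 points between lethal and viable gave p = 0.70 in an exact two-sided permutation test, which cannot go below 0.10. With 1 library left out this difference ran between -0.091 points, without viable replicate 2, and 0.63 points, without lethal replicate 2, and it was -0.014 without lethal replicate 1. No chloroplast or mitochondrial gene had a read, so all the values concern nuclear genes.

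Behind this even total, 3202 of the 13605 genes, or 23.5%, departed from equal shares. Of them 1473 (10.8%) were called maternal and 1729 (12.7%) paternal, where a call is an adjusted p under 0.05 in edgeR's quasi-likelihood test of maternal against paternal reads with the library as a block. Without the block, which ignores that both alleles come from the same library, 605 and 529 were called. Leaving out lethal replicate 1, which holds the 8-day part, gave 875 maternal and 1235 paternal calls, and leaving out replicate 2 gave 960 and 1062. Among the 5661 genes with at least 100 reads in every lethal library, 3943 (69.6%) had a mean maternal share between 40% and 60%, while 116 lay below 10% and 152 at 90% or above. The per-gene shares of these genes correlated between libraries with Pearson's r of 0.90, 0.86 and 0.88 across genes, which are not independent replicates, and the median SD between libraries was 3.74 points.

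**Figure D1:**
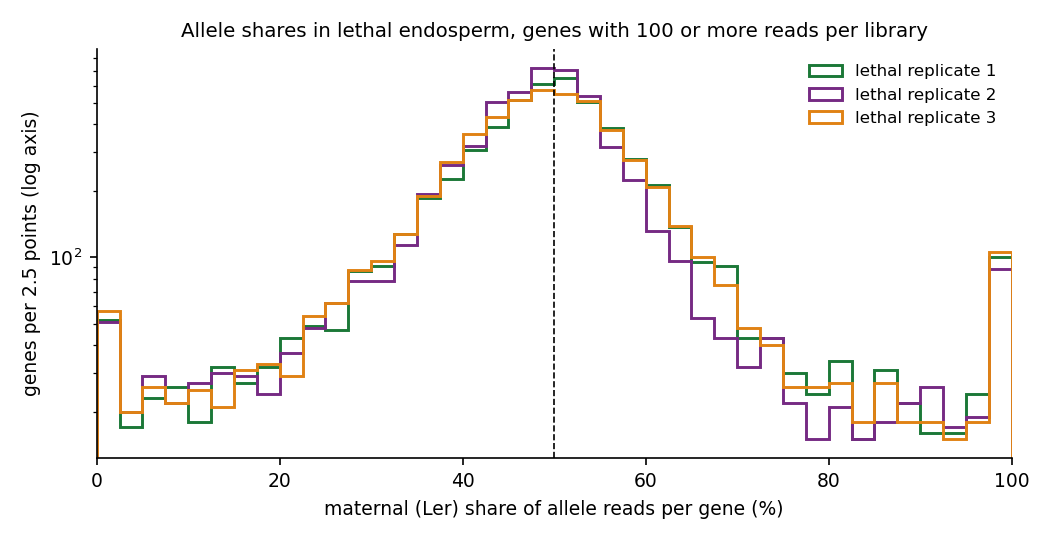
Number of genes (log axis) at each maternal share of allele reads, in percent, for the 5661 genes with 100 or more reads in every lethal library, 1 line per replicate and a dashed line at 50%. All 3 lines peak near 50% and rise again at both ends, where 116 genes averaged below 10% maternal and 152 at 90% or above.

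The depth of a gene set how small a departure could be called. Among 5985 genes with under 50 reads in their least read library, the median SD between libraries was 13.3 points, 13.9% of genes were called, and the called ones lay a median of 45.7 points from an equal share. Among 299 genes with 3000 or more reads in every library the median SD was 1.86 points, 60.5% were called, and these lay a median of 9.71 points from 50%. In this deepest class paternal calls were more frequent (124 genes) than maternal ones (57), while in the shallowest class maternal calls were more frequent (477 maternal and 354 paternal).

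Genes known for paternal expression lay mostly on the paternal side in lethal endosperm. Of 26 listed, 23 were measured, 18 were called paternal (12.7% of all genes were), 2 maternal and 3 neither, and their median maternal share was 10.0%, beside 49.7% over all genes tested. The list was drawn up with earlier results of these data known, so its direction is not independent evidence. HDG3, a homeodomain leucine zipper transcription factor, had maternal shares of 13.7%, 16.1% and 10.8% in lethal replicates 1, 2 and 3, and 11.9%, 11.4% and 11.1% in the viable ones. VIM5, a member of the family of methylcytosine-binding proteins that maintain DNA methylation, had 5.22%, 1.41% and 1.81% in lethal libraries, and between 0.96% and 1.34% in viable ones. Every lethal value of VIM5 lay above every viable one, as for 6.41% of the genes with a read in all 6 libraries. The difference in allele ratio of VIM5 between the groups did not pass the test (edgeR adjusted p = 0.97). The lethal libraries of each gene lay far below an equal share, at log2 maternal over paternal of -2.69 ± 0.12 for HDG3 and -5.31 ± 0.33 for VIM5 (SE, edgeR quasi-likelihood adjusted p = 2.62e-07 and 2.75e-06).

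Several other genes of this list had few or no maternal reads. YUC10, an auxin biosynthesis enzyme of the flavin monooxygenase family, had 1.46%, 0.44% and 0% maternal reads in lethal libraries, where 3 of 584 reads were maternal, and TAR1, which makes the auxin precursor that such enzymes use, had 28.6%, 28.1% and 19.5%. ADM had 1.0%, 2.78% and 0% maternal reads, and AT1G60410 0.44%, 0.99% and 0.57% from 9600 reads. For YUC10, ADM and AT1G60410 no lethal library exceeded 2.78%, while TAR1 kept between 19.5% and 28.6% and lost its call without lethal replicate 2. AT1G49290 had no maternal read among 186 in lethal libraries. In viable replicates 1, 2 and 3 it had 41.3%, 0% and 0% maternal reads, of only 63, 4 and 37 reads. The balanced pool gave 82.6% of only 23 reads. SUVH7, a SET-domain protein of the histone methyltransferase family, had 6.68%, 5.72% and 9.51% in lethal libraries against 1.64%, 2.75% and 0.22% in viable ones. The SUVH7 groups did not overlap, which was so for 1349 (11.3%) of the 11950 genes with a read in all 6 libraries, and the difference in allele ratio did not pass the test (log2 difference 2.1 ± 0.44, SE, edgeR adjusted p = 0.24). NF-YC7, a subunit of a CCAAT-binding factor, had 5.41%, 5.56% and 1.0%, and AT4G20800 and SAC2, a phosphoinositide phosphatase, were the least biased of the 18 at 39.8% ± 2.23 and 39.5% ± 6.80 (SD, n = 3). The call of SAC2 was lost without lethal replicate 1 and without replicate 3.

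Not every member of this list was paternal. MYB3R2, a MYB transcription factor of the family that acts in the cell cycle, had 98.1%, 98.8% and 98.3% maternal reads in lethal libraries and 91.5%, 84.4% and 92.0% in viable ones. Every lethal value of MYB3R2 lay above every viable one, as for 6.41% of the genes with a read in all 6 libraries. The log2 difference in ratio of MYB3R2, 2.75 ± 0.47 (SE), did not pass the test (edgeR adjusted p = 0.11). JMJ15, a JmjC-domain histone demethylase, had 100%, 97.0% and 98.9% in lethal libraries. Both were called maternal (edgeR adjusted p = 4.99e-07 and 2.63e-05), and both were 100% maternal in the balanced pool (103 and 111 reads). NRPD1, whose mutant allele the fathers of the viable cross carried, was not called in lethal endosperm, at 42.3%, 41.8% and 50.4% maternal in lethal replicates 1, 2 and 3. In the viable libraries NRPD1 was 66.5%, 69.7% and 53.8% maternal, above all 3 lethal values (as were 4.88% of the genes with a read in all 6 libraries), with a log2 difference in ratio of -1.16 ± 0.30 (SE) that did not pass the test (edgeR adjusted p = 0.55). Where the mutation lies relative to the counted reads was not examined. DAF1, at 36.6%, 30.4% and 65.3% on 113 reads, and AL4, at 26.1%, 23.1% and 29.4% on 53 reads, were not called either.

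Of 12 genes known for maternal expression, 8 were measured, 5 were called maternal (10.8% of all genes were) and none paternal, with a median share of 97.7%. FWA, a homeodomain transcription factor silenced by DNA methylation outside the endosperm, had 100% maternal reads in each lethal library, with 0 of 1805 reads paternal, which allows a paternal share of up to 0.17%. FIS2, the seed-specific zinc-finger subunit of Polycomb repressive complex 2, had 98.7%, 99.4% and 95.2%, and SDC, an F-box gene controlled by promoter methylation, had 100%, 100% and 99.3%. HDG9, a homeodomain factor related to FWA, had 99.1%, 97.7% and 99.6%, and SUVH8, a relative of SUVH7, had 97.3%, 95.4% and 100%. All 5 genes stayed above 95% in every lethal library, and all 5 remained called under every setting tried, including each library left out. SUVH8 was less maternal in the balanced pool, at 69.2% of 130 reads (exact 95% interval 60.5% to 77.0%).

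The 3 maternally expressed genes that were not called had shares near an equal division. HDG8, another homeodomain factor, had 44.6%, 43.0% and 46.97% maternal reads in lethal libraries (edgeR adjusted p = 0.064). FH5, a formin that organizes actin, had 41.7%, 47.7% and 53.2%, and IQD16, a calmodulin-binding protein, had 55.7%, 54.2% and 60.9%. By the authors' deposited table HDG8 was listed at 42.7 FPKM in lethal and 0.28 FPKM in balanced endosperm, and FWA at 87.9 FPKM in lethal and 0.51 FPKM in balanced endosperm. Both therefore rose in level past the authors' threshold (q = 0.00035 for HDG8 and q = 0.049 for FWA), while FWA was wholly maternal and HDG8 was not. MEA, the Polycomb subunit whose imprinting is best known, had 0 allele reads, and a gene with no position that separates the accessions cannot be told from one that is silent.

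**Figure D2:**
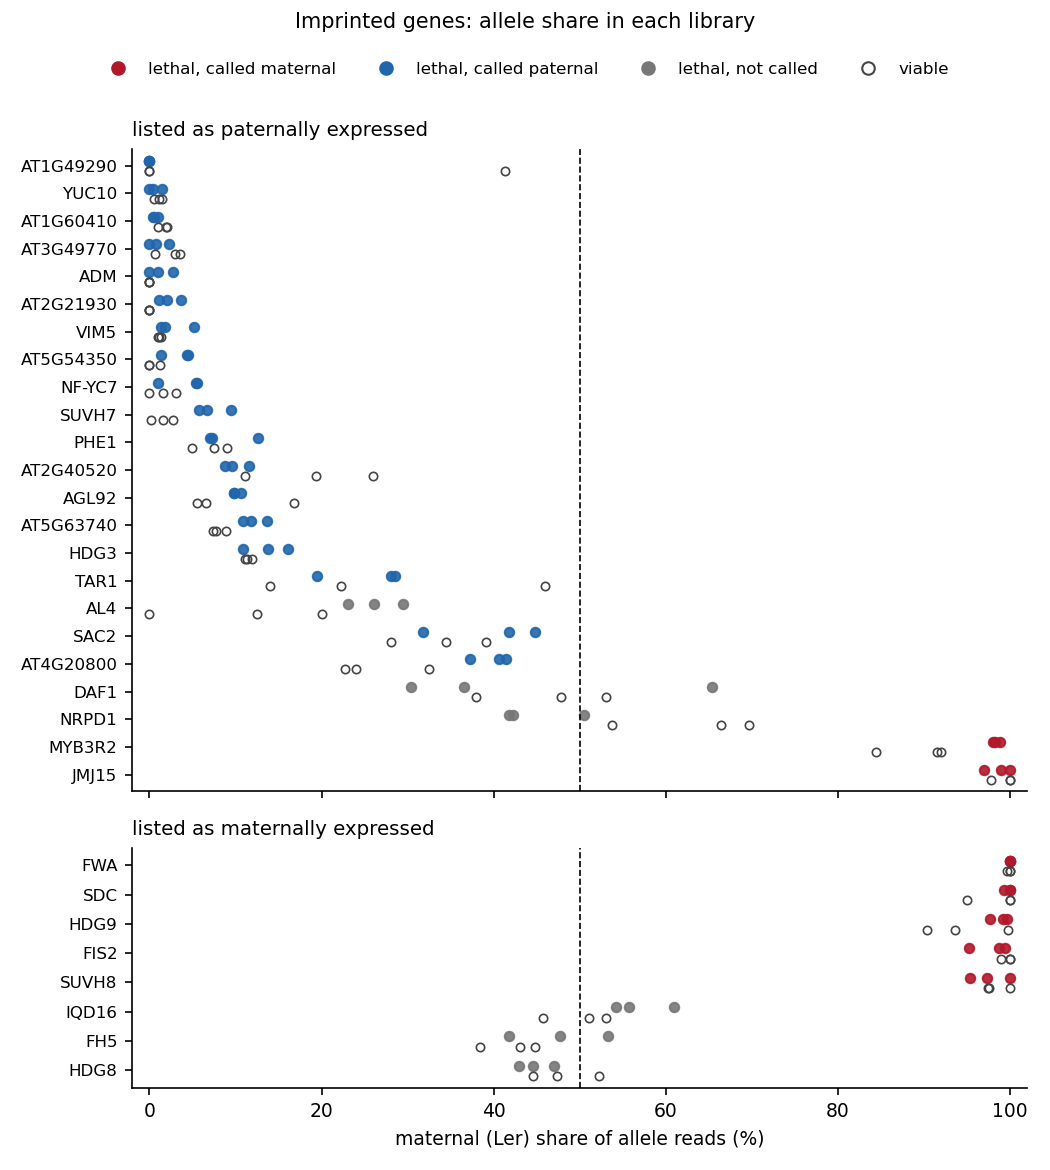
Maternal share of allele reads, in percent, for each measured imprinted gene, with 3 filled points for the lethal libraries (red, called maternal; blue, called paternal; grey, not called) and 3 open points for the viable libraries. Of the genes listed as paternally expressed 18 of 23 are blue and 2 are red, and of those listed as maternally expressed 5 of 8 are red.

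Type I MADS-box genes, transcription factors that act in the central cell and early endosperm, were divided. Of 22 listed, 11 were measured, 4 were called paternal and 2 maternal (12.7% and 10.8% over all genes), with a median share of 39.7%. PHE1, a target of Polycomb repression expressed from the paternal copy, had maternal shares of 7.07%, 12.6% and 7.28% in lethal libraries, while its near-identical relative PHE2 had 40.6%, 37.1% and 35.3%. Reads of PHE1 and PHE2 can be mistaken for each other, so both values are uncertain. AGL92 had 9.86%, 10.7% and 9.82%, and AGL86 had 21.0%, 14.01% and 12.4%. These paternal shares were far from 50% in all 3 libraries, at log2 ratios of -3.15 ± 0.13 and -2.45 ± 0.17 (SE, edgeR adjusted p = 1.90e-07 and 4.37e-06). AGL23, needed for the formation of the embryo sac, was called maternal at 76.4%, 54.7% and 87.0%, a wide spread, and AGL96 at 54.3%, 63.8% and 69.1%. Neither call held without lethal replicate 3, that of AGL23 not without replicate 1, and that of AGL96 not without replicate 2. AGL62, which holds back cellularization, had 67.1%, 68.1% and 67.2% from 206 reads and just missed the threshold (edgeR adjusted p = 0.056). The authors' deposited table lists AGL62 at 3.66 FPKM in lethal and 0.099 FPKM in balanced endosperm.

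Polycomb repressive complex 2 itself was thinly measured, with reads for 4 of 8 listed subunits. Besides FIS2, VRN2, a zinc-finger subunit known from the vernalization response, was called paternal at 31.1%, 16.2% and 24.2% maternal (log2 ratio -1.71 ± 0.21, SE, edgeR adjusted p = 0.00028). CLF, a catalytic subunit, and EMF2, a zinc-finger subunit, had mean shares of 42.5% ± 15.9 and 48.1% ± 6.21 (SD, n = 3) and were not called.

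Few genes of DNA methylation were called. Of 24 genes of RNA-directed DNA methylation 20 were measured, 1 was called (23.5% of all genes were), and the median share was 45.6%. Many of the 19 not called had few reads and wide spreads. NRPE1, the largest subunit of RNA polymerase V, had 26.7% ± 14.8 on 133 reads. AGO6, another Argonaute of the pathway, had 35.3% ± 11.0 on 307 reads (SD, n = 3 each). A modest departure from an equal share could go uncalled at such depth and spread. The gene called, SUVH9, a SET-domain protein that recruits RNA polymerase V to methylated DNA, had 6.53%, 3.16% and 2.95% maternal reads in lethal libraries (edgeR adjusted p = 7.91e-07) and 39.6% in the balanced pool of 815 reads. AGO4, the Argonaute that carries the small RNAs of this pathway, was the best read at 51.0%, 42.7% and 54.8%, and RDM1, which binds methylated DNA, had 48.4%, 42.9% and 51.3%. Of 13 genes of maintenance methylation and demethylation 10 were measured, and 2 were called paternal (12.7% over all genes). They were VIM1, a methylcytosine-binding partner of the maintenance methyltransferase, at 9.52%, 9.86% and 6.66%, and DDM1, a nucleosome remodeller, at 31.4%, 42.9% and 34.2%. VIM1 kept its call in every setting tried. DDM1 lost its call when any 1 of the 3 lethal libraries was left out, and the lethal values of DDM1 overlapped those of the viable libraries (40.2%, 40.6% and 37.5%). CMT3, a plant-specific methyltransferase, had 48.2%, 49.5% and 47.1%, and DME, the glycosylase that removes methylation in the central cell, had 48.1%, 62.6% and 71.4% on 139 reads.

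Among 10 regulators of endosperm growth 6 were measured, 1 was called maternal and 1 paternal, near the 10.8% and 12.7% over all genes. ZOU, a basic helix-loop-helix factor needed for endosperm breakdown around the embryo, had 75.9%, 88.2% and 78.5% maternal reads in lethal libraries, against 55.5%, 59.7% and 53.3% in viable ones and 52.8% in the balanced pool. Every lethal library lay above every viable one, as for 6.41% of the genes with a read in all 6 libraries, and the difference of 1.77 ± 0.32 in log2 ratio (SE) did not pass the test over all genes (edgeR adjusted p = 0.15). CKX2, a cytokinin oxidase that acts below the HAIKU genes, was called paternal at 34.1%, 34.8% and 32.4%. ALE1, an endosperm protease that shapes the embryo surface, had 56.3%, 53.1% and 58.3% in lethal libraries, against 42.3%, 46.2% and 30.2% in viable ones, and was not called in lethal endosperm (edgeR adjusted p = 0.057). Its lethal values also all lay above the viable ones, as for the same 6.41% of genes. ALE1 was not among the 8 genes whose allele ratio was called different between lethal and viable endosperm. With the ratio scaled by TMM or to each library's median gene, the members called maternal numbered 4 and 3.

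Oil body proteins leaned to the paternal side. Of 13 storage protein and oil body genes 7 were measured, 5 were called paternal (12.7% of all genes were) and none maternal, at a median of 26.1% maternal. OLEO1 had maternal shares of 13.9%, 19.6% and 20.5% in lethal libraries, against 40.3%, 35.3% and 24.6% in viable ones. Every lethal value of OLEO1 lay below every viable one, as for 4.88% of the genes with a read in all 6 libraries. OLEO1 was not among the 8 genes whose allele ratio was called different between lethal and viable endosperm. OLEO2 had 25.3%, 32.9% and 20%, and OLEO3 had 39.6%, 33.3% and 38.1%. OLEO4 had no maternal read among its 101 reads, which allows a share of up to 2.97%, and no read of either allele in lethal replicate 3. OLEO1 to OLEO4 encode oleosins, which coat oil bodies, and AT3G01570, listed with them, was also called paternal at 37.1%, 43.6% and 39.5%. Levels of these genes were low in lethal endosperm, with OLEO1 listed at 11.2 FPKM in lethal and 519 FPKM in balanced endosperm by the authors' deposited table. In such bulk tissue fewer cells of a type and less RNA per cell cannot be told apart. Without lethal replicate 1 or without replicate 2 the number called fell to 3 of 7, and with no library block to 1, which was OLEO1.

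No marker of the embryo was called, and most had few reads. Of 19 listed 10 were measured, and their median share was 33.9%, while the summed reads of the list were 44.4%, 42.1% and 37.8% maternal in lethal replicates 1, 2 and 3, against 39.1%, 37.3% and 54.6% in the viable ones. ATML1, an epidermal homeodomain factor, had 46.6%, 47.96% and 38.7%, PDF1, an epidermal proteoglycan, 44.8%, 35.6% and 25%, and WOX8, a homeodomain factor of the early embryo, 31.4%, 35.7% and 42.4%. The summed level of the list was 159, 251 and 46.8 CPM (counts scaled to the allele reads of the library) in the lethal libraries and between 60 and 124 CPM in the viable ones. WUS, WOX2, CUC1, CUC3 and PLT2 had 0 allele reads. The part of embryo RNA in the paternal calls was not tested.

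Seed coat markers were on the maternal side throughout. Of 20 listed 12 were measured, and all 12 were called maternal (10.8% of all genes were), with a median share of 98.9%. BAN, the anthocyanidin reductase of tannin synthesis in the seed coat, had 0 paternal reads among 2372 (a paternal share of up to 0.13%), and TT10, a laccase that oxidizes tannins, had 99.9%, 99.9% and 100% maternal reads. TT4, the chalcone synthase that opens the flavonoid pathway, had 99.8%, 99.4% and 99.8%, and DFR, a later enzyme of the pathway, had 99.01%, 93.1% and 96.4%. MUM2, a galactosidase of mucilage maturation, was the least maternal at 78.6%, 72.0% and 76.8%. The list summed to 1225, 866 and 934 CPM in lethal libraries, and to between 687 and 847 CPM in viable ones. TT16, a MADS-box factor of the inner seed coat, had 41 reads and lost its call when any 1 of the 3 lethal libraries was left out, and the other 11 calls held. TT2, TT12, AHA10, MYB61 and MYB5 had 0 allele reads. The share of the 1473 maternal calls that seed coat RNA accounts for was not tested.

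The remaining lists had 3 or fewer calls each, where 10.8% of all genes were called maternal and 12.7% paternal. Of 12 housekeeping genes 10 were measured, with a median share of 48.9%, and 3 were called paternal: ACT2 at 41.7%, 39.0% and 37.0%, ACT8 at 38.5%, 42.9% and 43.8%, and UBC9, a ubiquitin-conjugating enzyme, with no maternal read among 37. The actin genes ACT2 and ACT8 lost their calls when any 1 of the 3 lethal libraries was left out, and UBC9 without replicate 1 and without replicate 2. Of 14 replication and cell cycle genes 10 were measured, and MCM7, a helicase subunit, at 55.9%, 55.5% and 57.3%, and PCNA2, a sliding clamp, at 52.3%, 61.2% and 61.8%, were called maternal, but neither without lethal replicate 2 or without replicate 3. Of 15 nuclear photosynthesis genes 13 were measured, and the antenna proteins LHCB6, at 32.5%, 33.3% and 32.5%, and LHCA3, at 44.7%, 42.7% and 42.5%, were called paternal, LHCA3 in none of the fits without 1 library. Of 10 genes of sugar transport and cleavage 4 were measured, with a median of 75.6%, and the sucrose exporters SWEET12, at 100%, 96.7% and 85.3%, and SWEET10, with 50 of 50 reads maternal, were called maternal, SWEET10 not without replicate 1 or without replicate 2. SUC5, a sucrose importer of the endosperm, was not called, at 51.5%, 49.5% and 42.4%. Of 8 pollen and sperm markers 1 was measured, HAP2, a sperm fusion protein, at 37 reads and not called. The authors' deposited table lists HAP2 at 0.96 FPKM in lethal and 1.14 FPKM in balanced endosperm.

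**Figure D3:**
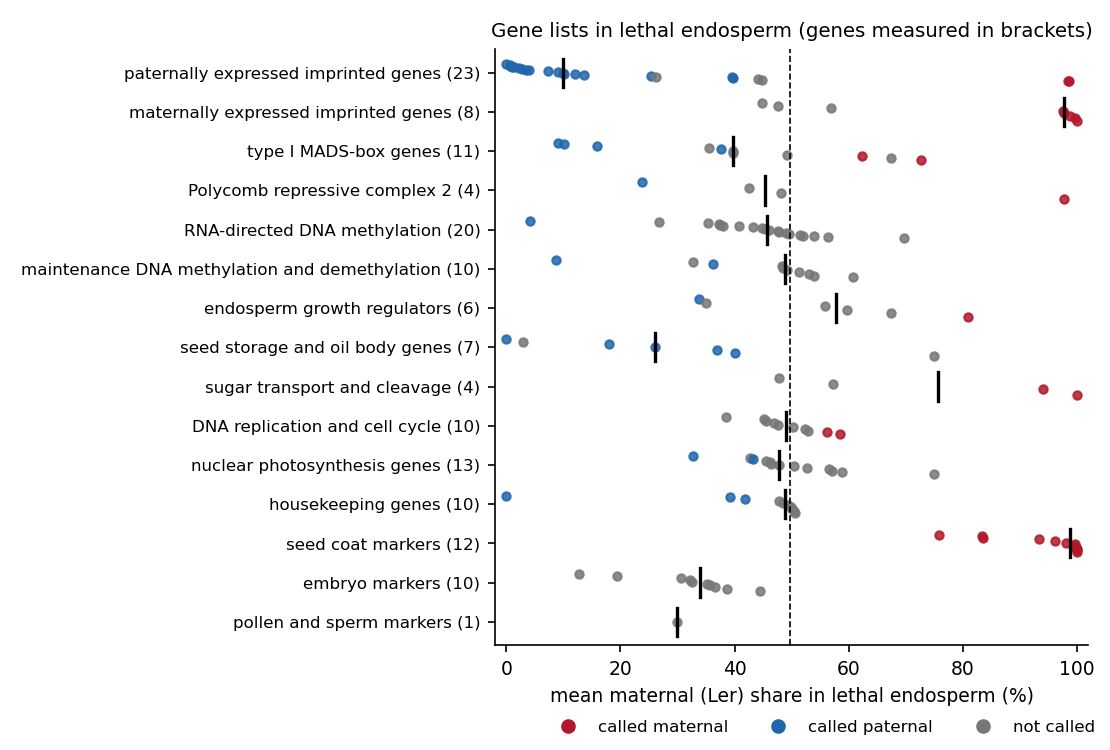
Mean maternal share over the 3 lethal libraries, in percent, for each measured member of 15 gene lists (red, called maternal; blue, called paternal; grey, not called), with the list's median as a black bar and the median of all genes tested, 49.7%, as a dashed line. The medians of the paternally expressed genes (10.0%) and of the seed storage and oil body genes (26.1%) lie to the left. Those of the maternally expressed genes (97.7%) and seed coat markers (98.9%) lie to the right.

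Beyond the lists, the genes with the most complete maternal bias among those with 100 or more reads in each library included BAN, FWA and TT10 themselves. VSR6, a vacuolar sorting receptor (chromosome 1, 10996870 to 11000809, TAIR10), had 0 paternal reads among 1699, and AT1G28590 (chromosome 1, 10047276 to 10049343) had 0 among 1621. The maternal allele was thus at least 566-fold higher for VSR6 and at least 540-fold higher for AT1G28590, counted against 3 reads over the group. GASA1, a small cysteine-rich protein induced by gibberellin, had 0 paternal reads among 755, AT1G55650 0 among 660, AT5G41630 0 among 537, AT2G16960 0 among 531, and UGT73C2, a glycosyltransferase, 0 among 395. MES4, a methylesterase, had 1 paternal read among 4479, and AT1G62060, the most deeply read, 14 among 21221. Most of these were also maternal in the balanced pool, between 98.6% and 99.8% for VSR6, AT1G28590, GASA1, MES4 and AT1G62060. UGT73C2 was an exception at 72.6% of 266 reads (exact 95% interval 66.8% to 77.8%).

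The genes with the most complete paternal bias were mostly without a name in the reference table. AT2G12190 (chromosome 2, 4891642 to 4893397) had 0 maternal reads among 1925 in lethal libraries, so its paternal allele was at least 642-fold higher, and was listed at 55.02 FPKM in lethal and 0.11 FPKM in balanced endosperm by the authors' deposited table (q = 0.0017). EXPA23, an expansin of the cell wall (chromosome 5, 15730653 to 15731790), had 0 maternal reads among 711 and was listed there at 32.05 FPKM in lethal and 0.24 FPKM in balanced endosperm (q = 0.00035). AT5G38270, also on chromosome 5 (15289032 to 15290252), had 0 among 1286, and AT3G44090, on chromosome 3, had 1 maternal read among 3206. AT1G32280, recorded in the reference table under the synonym END1-LIKE 1, had 13 maternal reads among 17364, with 0.05%, 0% and 0.14% in lethal replicates 1, 2 and 3, and none among 740 in the balanced pool. AT1G53282, with 0 among 1578 in lethal libraries, was 18.0% maternal in the balanced pool of 1978 reads. PSRP6, a plastid ribosomal protein, had 0 maternal reads among 568 and was listed at 70.9 FPKM in lethal and 487 FPKM in balanced endosperm. The others of the 12 were AT3G44430, AT2G03931, AT4G07825, AT2G24696 and AT5G28622, each with no maternal read among 456 to 730.

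In the 12 most read genes slight departures could be called. LCR73, a low-molecular-weight cysteine-rich peptide, had 442970 reads and shares of 48.1%, 47.8% and 47.3% (edgeR adjusted p = 0.047, lost without lethal replicate 2 and without replicate 3), and LCR84, of the same family, had 58.7%, 57.9% and 53.7% (adjusted p = 0.0011). AT5G56369 was the most paternal of the 12 at 24.6%, 23.2% and 20.7%, and AT3G01415 the most maternal at 73.6%, 69.3% and 67.98%. AT4G17215 and AT5G42235 were called maternal with means of 57.2% ± 0.69 and 54.7% ± 1.65, and AT5G38195 paternal with 40.7% ± 0.25 (SD, n = 3). The other 5, AT2G19970, RP1 and LOS1 (a ribosomal protein and a translation elongation factor), NAKR1 and AGP24, were not called and had means between 47.3% and 54.2%.

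The typical share varied little along the genome. Median shares per chromosome ranged from 48.4% to 50.4% over the 3 lethal libraries and 5 chromosomes. In 110 bins of 1 Mb with at least 20 genes read 20 times in each library, the mean of the 3 library medians ran from 44.8% to 52.4%, and 108 bins lay between 45% and 55%. The percent of genes called in a bin ranged more widely, from 9.64% to 50% with a median of 28.1%. By kind of gene, the 13108 protein-coding genes had a median of 49.8% with 1387 maternal and 1631 paternal calls, and 59 genes annotated in the reference table as other noncoding RNA had a median of 34.2% with 4 maternal and 20 paternal calls.

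The calls were also counted by how a gene's level differed from balanced endosperm. Among 2938 genes that the authors' deposited table lists as higher in lethal than balanced endosperm (q under 0.05), 644 (21.9%) were called paternal and 283 (9.63%) maternal, with a median share of 47.5% and quartiles of 38.5% and 54.0%. Among 2350 genes listed as lower, 214 (9.11%) were called paternal and 278 (11.8%) maternal, with a median of 51.3%. The 8317 remaining genes had 10.5% paternal and 11.0% maternal calls. With 100 or more reads required in each library, the percent called paternal was 29.5% among the higher, 17.3% among the lower and 16.9% among the remaining genes. The percent called maternal was then 12.1%, 17.5% and 13.6% in the same order. Over all genes tested, paternal calls covered 5.9% of those under 50 reads in their least read library and 41.5% at 3000 or more. Maternal calls covered 7.97% and 19.1%. Above the floor of 100 reads depth was not matched between the groups of genes, and its part in their paternal calls was not tested. The same lethal libraries supplied both the levels and the allele shares.

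Set beside the balanced pool, the lethal shares lay lower by about what the genome copies give. Over 11457 genes with 20 or more reads in each, the median difference, lethal minus balanced, was -15.1 points, where the copy numbers alone give -16.7. A share at least 20 points lower was found for 3506 genes (30.6%) and one at least 20 points higher for 278 (2.43%). No test was made, because only the authors' pool was used and the columns of single balanced replicates were not. When each share was set against its own genome dosage, 1141 genes were at least 20 points higher and 497 at least 20 points lower, an alternative chosen after the data were seen. Among genes with 100 or more reads in each, 98 were 95% to 100% maternal in the balanced pool, and 92 of them were called maternal in lethal endosperm at a median of 99.02%. Of the 33 genes below 15% in the pool 32 were called paternal, with a median of 3.82%. The pool came from other series, so library batch and ploidy cannot be told apart in this comparison.

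Some genes departed strongly from that pattern. SUS1, a sucrose synthase, had maternal shares of 29.9%, 27.2% and 30.4% in lethal libraries, against 85.9% of 9256 reads in the balanced pool (exact 95% interval 85.2% to 86.6%). HEXO3, a hexosaminidase that trims glycans, had 35.9%, 32.5% and 27.0% against 97.5% of 118 reads, and AT5G38197 had 36.4%, 30.6% and 31.4% against 90.6%. AT1G69630, AT4G19390 and AT5G38600 also differed, lethal minus balanced, by -62.3, -56.1 and -55.5 points. Mean shares in the viable libraries also lay below the pool, at 46.0% for SUS1, 24.2% for HEXO3 and 42.1% for AT5G38197. For AT1G69630, AT4G19390 and AT5G38600 the viable means were 30.2%, 15.3% and 25.8%. In the other direction, KCS19, a ketoacyl-CoA synthase of fatty acid elongation, had 99.2%, 99.8% and 100% in lethal libraries against 40.96% of 2063 reads, and TT7, the flavonoid 3'-hydroxylase, had 94.3%, 100% and 93.5% against 32.2% of 876 reads. AT5G50070 was 56.3%, 61.6% and 61.7% maternal in lethal libraries and 13.9% in the pool. AT3G24513, JAX1, a jacalin-type lectin of virus resistance, and LEA4-5, a late embryogenesis abundant protein, were higher by 52.4, 40.1 and 37.3 points. Viable means lay above the pool for these genes too, at 98.8% for KCS19, 87.2% for TT7 and 36.1% for AT5G50070. For AT3G24513, JAX1 and LEA4-5 they were 70.6%, 66.3% and 46.8%. TT7 acts in the same flavonoid pathway as several seed coat markers, and the part of seed coat RNA in its share was not tested.

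**Figure D4:**
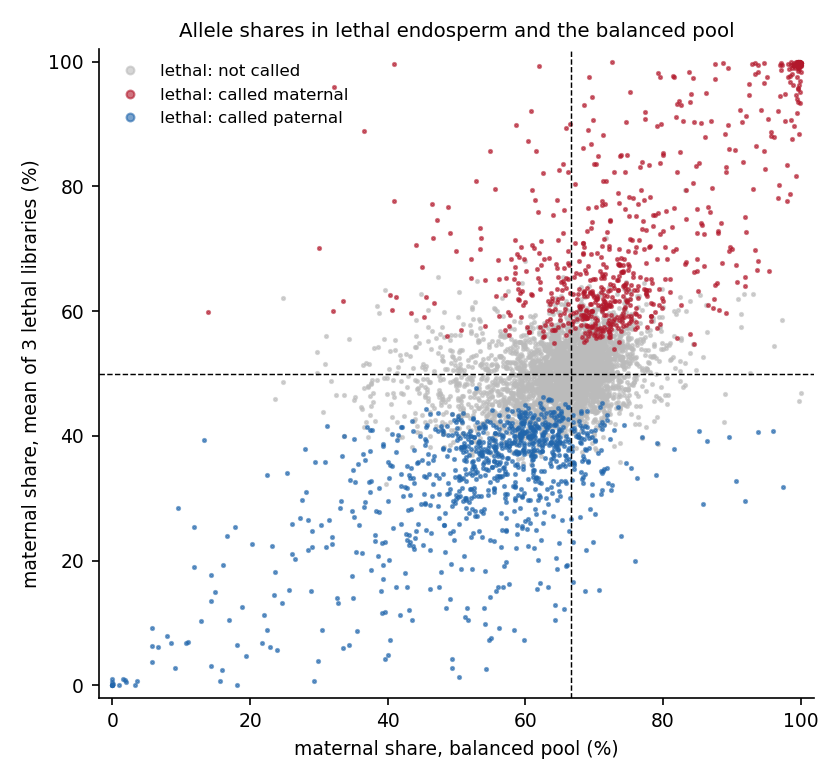
Mean maternal share over the 3 lethal libraries against the share in the balanced pool, in percent, for genes with 100 or more reads in each lethal library and in the pool, coloured by the call in lethal endosperm, with dashed lines at the shares of the genome copies (50% and 66.7%). Genes at the lower left and upper right, paternal or maternal in the pool, are also called in lethal endosperm, as for 32 of 33 genes below 15% and 92 of 98 at 95% or above.

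Between lethal and viable endosperm few allele ratios were called different. On simulated counts the test found only 16% of 2-fold and 56% of 4-fold differences, placed in better read genes, so real differences could go uncalled. Of 12691 genes with 20 or more reads in each group, 8 (0.063%) passed edgeR's quasi-likelihood test of the interaction between allele and group, 5 of them more maternal and 3 less maternal in lethal endosperm, and 526 had an unadjusted p under 0.05. GPT2, the plastid transporter that imports glucose 6-phosphate for starch, had 86.5%, 87.0% and 88.2% maternal reads in lethal libraries, against 60.05%, 64.0% and 50.9% in viable ones. AT3G16210 had 95.1%, 92.9% and 90.7% in lethal libraries, against 58.1%, 72.6% and 54.6% in viable ones, and AT2G21420 79.7%, 90.8% and 84.6% against 58.1%, 56.9% and 55.01%. The log2 differences in ratio were 2.29 ± 0.25, 3.05 ± 0.34 and 2.18 ± 0.27 (SE, adjusted p = 0.022 for each). AT3G48410 had 58.2%, 63.3% and 57.8% in lethal and 36.3%, 38.7% and 36.9% in viable libraries, and AT5G38960 30.4%, 33.8% and 37.1% in lethal and 22.4%, 21.97% and 22.3% in viable ones.

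The 3 genes less maternal in lethal endosperm were AT4G24973, AT2G21130 and AT5G19700. AT4G24973 had 39.4%, 35.7% and 41.9% in lethal libraries against 65.9%, 73.0% and 69.6% in viable ones. AT2G21130 had 57.2%, 47.8% and 58.3% against 79.6%, 75.4% and 74.1%, beside 96.2% in the balanced pool of 63740 reads. AT5G19700 had 47.4%, 49.5% and 45.8% against 63.6%, 61.2% and 64.6%. The 8 genes were chosen by the test of this difference, so that their groups do not overlap adds nothing to it. In the authors' deposited table GPT2 was listed at 7.39 FPKM in lethal and 479 FPKM in balanced endosperm, while AT3G16210 was listed there at 18.8 FPKM in lethal and 0.28 FPKM in balanced endosperm, and AT5G19700 at 440.5 FPKM in lethal and 7.29 FPKM in balanced endosperm. None of the 8 was on a gene list. Limma called no gene (614 had an unadjusted p under 0.05), DESeq2 called 33 more and 12 less maternal, and no gene was called without lethal replicate 3 or without viable replicate 1. Without lethal replicate 1 there were 3 more maternal and 1 less maternal, without lethal replicate 2 there was 1 more maternal, and without viable replicate 2 there were 2 more maternal.

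**Figure D5:**
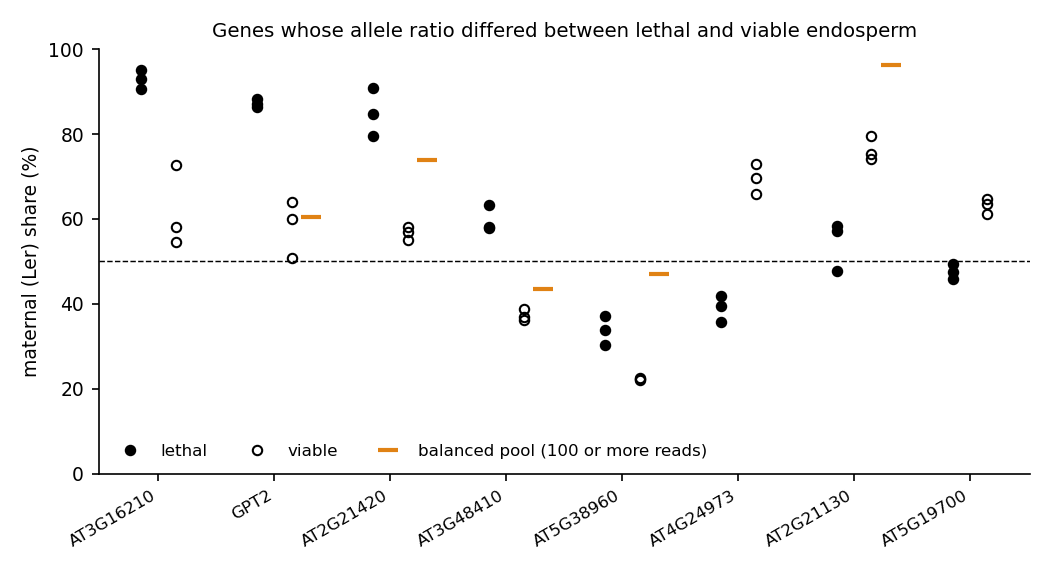
Maternal share, in percent, in the 3 lethal libraries (filled) and the 3 viable libraries (open) of the 8 genes whose allele ratio differed, with the balanced pool as an orange bar where it held 100 or more reads and a dashed line at 50%. In each gene the 3 lethal points lie wholly above or wholly below the 3 viable points.

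Viable replicate 3 stood apart in the spread of its shares. The middle 90% of its genes with 20 or more reads ran from 1.16% to 100% maternal, against 20.9% to 81.6% and 20.1% to 77.9% in viable replicates 1 and 2, and it had reads in 13465 genes, fewer than any other library. In lethal replicates 1, 2 and 3 the range was 17.2% to 89.0%, 18.5% to 82.0% and 16.7% to 90.8%. Leaving out viable replicate 3 raised the calls between lethal and viable endosperm to 23 more maternal and 5 less maternal.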

How the data were processed

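Counts of reads assigned to the Ler or Col allele of each gene were deposited by the authors, by a rule that no header or label describes. Bias between the alleles from mapping to the Col reference could therefore not be assessed and was not tested. The submitters' processing notes name Trim Galore, FastQC, TopHat, Bowtie, Cuffdiff and TAIR10. For balanced endosperm the authors deposited a pooled count and the percent of Col reads, and 10 allele columns of single balanced replicates were not used. The authors' deposited expression table gives FPKM per group, a q-value and positions per the file headers.

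Genes with 20 or more summed reads were tested with edgeR 4.0.16 in R 4.3.3 (quasi-likelihood F test, Benjamini-Hochberg over all genes tested). The 6 allele columns of the lethal group were fitted with library as a block and no scaling between the alleles of a library, since such scaling would remove the quantity measured. The maternal and paternal reads of a library come from the same RNA. Lethal and viable were compared by the interaction of allele and group over 12 columns. Each SE of a log2 ratio or difference was back-calculated as its absolute size over the square root of the F statistic. It is not the spread of the ratios of single libraries. The labels do not say whether replicates came from separate plants, so a p-value reflects only how these libraries vary, which may be technical. On simulated counts the test within lethal found 46% of 2-fold and 92% of 4-fold differences, placed only in genes with 100 or more summed reads. The test between groups, with differences likewise placed only in better read genes, found 16% and 56%. Recovery in genes with fewer reads was not measured. Wilson and exact intervals and the limit of 3 reads cover counting error only. Reads outside genes, between 7.95% and 9.17% of lethal reads, were left out.

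Gene names came from a RefSeq table (TAIR10.1), which matched 37051 of 37336 gene IDs. The members, the 15 lists (217 genes) and the tests were chosen with earlier results of these data known. Genes named outside the lists were, in each direction, the 12 called genes with the highest favoured share in their least biased library, the 12 most read, up to 8 differing from viable and 6 from balanced endosperm, with 100 or more reads in each library. Alternatives were scaling (TMM, median gene), DESeq2 1.42.0, limma 3.58.1, read filters, the block, a 1.5-fold threshold and each library left out.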

Additional observations from a re-analysis of the deposited data

Results flagged for a closer look

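The 8 genes whose allele ratio differed between lethal and viable endosperm by edgeR's interaction test are given here with the size of the difference in log2 maternal over paternal, lethal minus viable. The 5 more maternal in lethal endosperm were AT3G16210 (3.05), GPT2 (2.29), AT2G21420 (2.18), AT3G48410 (1.32) and AT5G38960 (0.83). The 3 less maternal in lethal endosperm were AT4G24973 (-1.82), AT2G21130 (-1.44) and AT5G19700 (-0.92). Over 12 alternatives the adjusted p of GPT2 ranged from 2.62e-09 to 0.11 with 7 under 0.05, and that of AT5G38960 from 3.29e-06 to 0.22 with 5 under 0.05.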

How the results depend on the processing

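The 1473 maternal and 1729 paternal calls in lethal endosperm became 605 and 529 with no replicate block, which ignores that both alleles of a library come from the same RNA, and 897 and 954 when the difference had to exceed 1.5 times. Leaving out 1 lethal library gave 875 to 1172 maternal and 1062 to 1470 paternal calls. Scaling by TMM moved the median log2 ratio of all genes by 0.058 and gave 1696 maternal and 1653 paternal calls, and DESeq2 gave 1278 and 1506. Of 106 named genes called, none changed direction in any setting. Paternal calls among storage and oil body genes fell to 3 with 20 reads in each library, 1 with no replicate block and 3 above 1.5 times, and were 3 to 5 with a library left out. The library-wide maternal share was 49.4% as the median gene.

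Genes more and less maternal in lethal than in viable endosperm (5 and 3) numbered 33 and 12 with DESeq2, 0 and 0 with limma, 27 and 9 with no filter, and 0 to 23 and 0 to 5 with 1 library left out. With the replicate number as a block they were 5 and 2. Deviations of equal replicate numbers in allele ratio correlated at 0.0025, 0.065 and 0.056 over 8844 genes, so the numbers were not taken to pair the libraries. Shares at least 10 points higher and lower than in the balanced pool were found for 650 and 7623 genes, at least 30 points for 105 and 1024, with 100 reads in each for 44 and 1343 of 5010, and against genome dosage for 1141 and 497. With 100 reads in each library 17.3% of genes the authors list as lower and 16.9% of those not called were called paternal. The causes were not tested. Depth limited what could be called below 50 reads in a library.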
